A study of Mus musculus with 7 samples.

Results

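The enzymes that modify chromatin and the motors that move nucleosomes were examined in thymic T cells: histone methyltransferases, histone demethylases, histone deacetylases, DNA methyltransferases, DNA demethylating dioxygenases and ATP-dependent remodellers. Members were all genes whose symbol starts with Kdm, Kmt, Ezh, Hdac, Sirt, Dnmt, Smarc or Setd, with Tet1, Tet2 and Tet3, and with Chd followed by a digit. Of 18193 genes on the array 80 met this rule away from the X and Y chromosomes, and 76 of them reached an intensity of 82 in 2 or more arrays and were tested among 10874 genes. The other 4, Dnmt3l, Hdac9, Hdac11 and Kdm4d, were under that intensity in every array (15.6 to 54.4). The dimmest members just inside it were Chd5 (74.9 to 112), Smarcd3 (71.9 to 99.6), Sirt4 (74.7 to 105) and Sirt5 (50.6 to 99.7). The 7 genes of the same names on X or Y, among them the demethylases Kdm5c, Kdm6a and Kdm5d, were left out.

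RNA was measured on 7 single-colour Affymetrix arrays, each hybridised with RNA of cells sorted from the thymi of pooled mice of C57BL/6J background aged 4 to 6 weeks. The Luxoid group (n = 3) was stage 1 natural killer T (NKT) cells of Luxoid mutant mice that also carried the Valpha14 T cell receptor transgene. Luxoid mice are deficient in PLZF, the transcription factor encoded by Zbtb16. The stage 1 NKT group (n = 2) carried the Valpha14 transgene without the mutation. Both NKT groups were sorted as CD1d tetramer+ CD24low CD44- NK1.1- cells, so the transgene was shared by both and was absent from the CD4SP group (n = 2), CD4+ CD8- thymocytes of wild-type mice. A comparison of either NKT group with CD4SP therefore differs in cell type and in transgene, and that of Luxoid NKT also in the mutation. These differences cannot be told apart. For CD4SP, 1 label repeats the NKT sort, while the titles, sources and descriptions name CD4SP.

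Chromatin enzymes set which genes a cell can use. Methylation of histone H3 at lysine 4 marks active promoters and enhancers, methylation at lysine 27 by the Polycomb enzymes marks silenced genes, and demethylases of the Kdm family take such marks away. Histone deacetylases and sirtuins remove acetyl groups, DNA methyltransferases and TET dioxygenases write and oxidise methylcytosine, and CHD and SWI/SNF motors slide or evict nucleosomes. PLZF is a repressor and activator of the BTB zinc finger family, and human PLZF recruits corepressor complexes that hold histone deacetylases. PLZF drives the innate-like programme of NKT cells during their maturation in the thymus.

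The markers were read first. Zbtb16 was at 1857, 2774 and 2645 in Luxoid NKT, at 2751 and 3488 in stage 1 NKT and at 87.3 and 61.8 in CD4SP by its brightest probe set, which set both NKT groups apart from CD4SP. Its other probe sets read 621, 918 and 806 in Luxoid NKT and 1263 and 1579 in stage 1 NKT (-0.87), and 396, 472 and 444 in Luxoid NKT and 728 and 745 in stage 1 NKT (-0.76), without overlap, where the brightest gave -0.38 with overlap. The array measures the transcript and not the protein. Cd24a, a gene of the sort, stood at 14.9 to 57.1 in Luxoid NKT, at 14.1 to 14.2 in stage 1 NKT and at 239 to 246 in CD4SP. Genes of immature double-positive thymocytes summed to 418 to 574 in Luxoid NKT, 316 to 325 in stage 1 NKT and 927 to 1075 in CD4SP over 7 genes, of which 3 passed the intensity filter and Rag1, Rag2, Ptcra and Arpp21 did not. Of those 3, Cd8a was called higher in Luxoid than in stage 1 NKT (0.86). Of 6 genes listed for NKT cells, Icos and Il4 were called lower in Luxoid than in stage 1 NKT and 0 higher. The defining B cell genes Ms4a1 and Ebf1, the NK cell genes Ncr1 and Klrk1 and 3 erythroid genes were under the filter in every group. Other genes of these lists were not: Cd79b was called higher in Luxoid NKT and stage 1 NKT than in CD4SP (1.65 and 1.69), Cd79a lower (-0.75 and -0.82) and Nkg7 higher (3.53 and 3.24). Tyrobp of the NK cell list was called lower in both NKT groups than in CD4SP. Fcer1g averaged 924 in Luxoid NKT, 235 in stage 1 NKT and 75.4 in CD4SP, and was called higher in Luxoid than in stage 1 NKT (1.98, limma adjusted p = 0.000554). Regulatory T cell genes Foxp3 (148 to 193, 161 to 166 and 449 to 465) and Ctla4 (48.8 to 67.5, 47.1 to 61.6 and 326 to 464, in Luxoid NKT, stage 1 NKT and CD4SP) were highest in CD4SP, while Ikzf2 of the same list averaged 1193 in Luxoid NKT, 1097 in stage 1 NKT and 495 in CD4SP. In sorted bulk samples a smaller share of cells that use a gene and less RNA per cell cannot be told apart. The part of these cell types in the differences below was not tested. The pools also differed in sex: Y-linked genes averaged 9.25, 615 and 305 in Luxoid NKT arrays 1 to 3, 8.74 and 521 in stage 1 NKT, and 9.96 and 758 in CD4SP.

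Loss of PLZF was compared at the same stage and with the same transgene by setting Luxoid against unmutated stage 1 NKT. None of the 76 members differed past the threshold. By limma's moderated test, with Benjamini-Hochberg adjustment over all genes tested and a threshold of 0.05, 0 of 76 members were called, where 1.55% of all genes tested were. At an unadjusted p under 0.05 there were 8 members, 2 higher (2.63%, against 4.48% of all genes) and 6 lower (7.89%, against 7.12%) in Luxoid NKT, together 10.5% against 11.6%. The differences of the members ran from -0.79 to 0.65 on the log2 scale with a median of 0.02, and the median of all genes was -0.03. Above 0 were 41 members (53.9%, against 44.0% of all genes). No member differed by 1 or more on the log2 scale (2-fold), as 1.58% of all genes did. Both NKT groups did not overlap for 6 members higher and 9 lower in Luxoid NKT, 7.89% and 11.8%, where 10.1% and 16.6% of all genes did not.

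The intervals give the size of change that these arrays leave possible. The 95% interval of limma lay within 2-fold in either direction for 72 of 76 members (94.7%, against 91.3% of all genes), and within 1.5-fold for 50 of them (65.8%, against 54.7%). Dnmt3b, Kmt2b, Setd4 and Tet1 were the members whose interval reached 2-fold. The intervals are not adjusted for the number of genes tested, as the calls are. Dnmt3b (-1.22 to -0.36) and Setd4 (0.26 to 1.05) had intervals that excluded 0 and were not called. Changes larger than the reach of an interval can thus go uncalled with 3 and 2 arrays. Whether the enzymes differed in protein or activity was not measured.

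**Figure D1:**
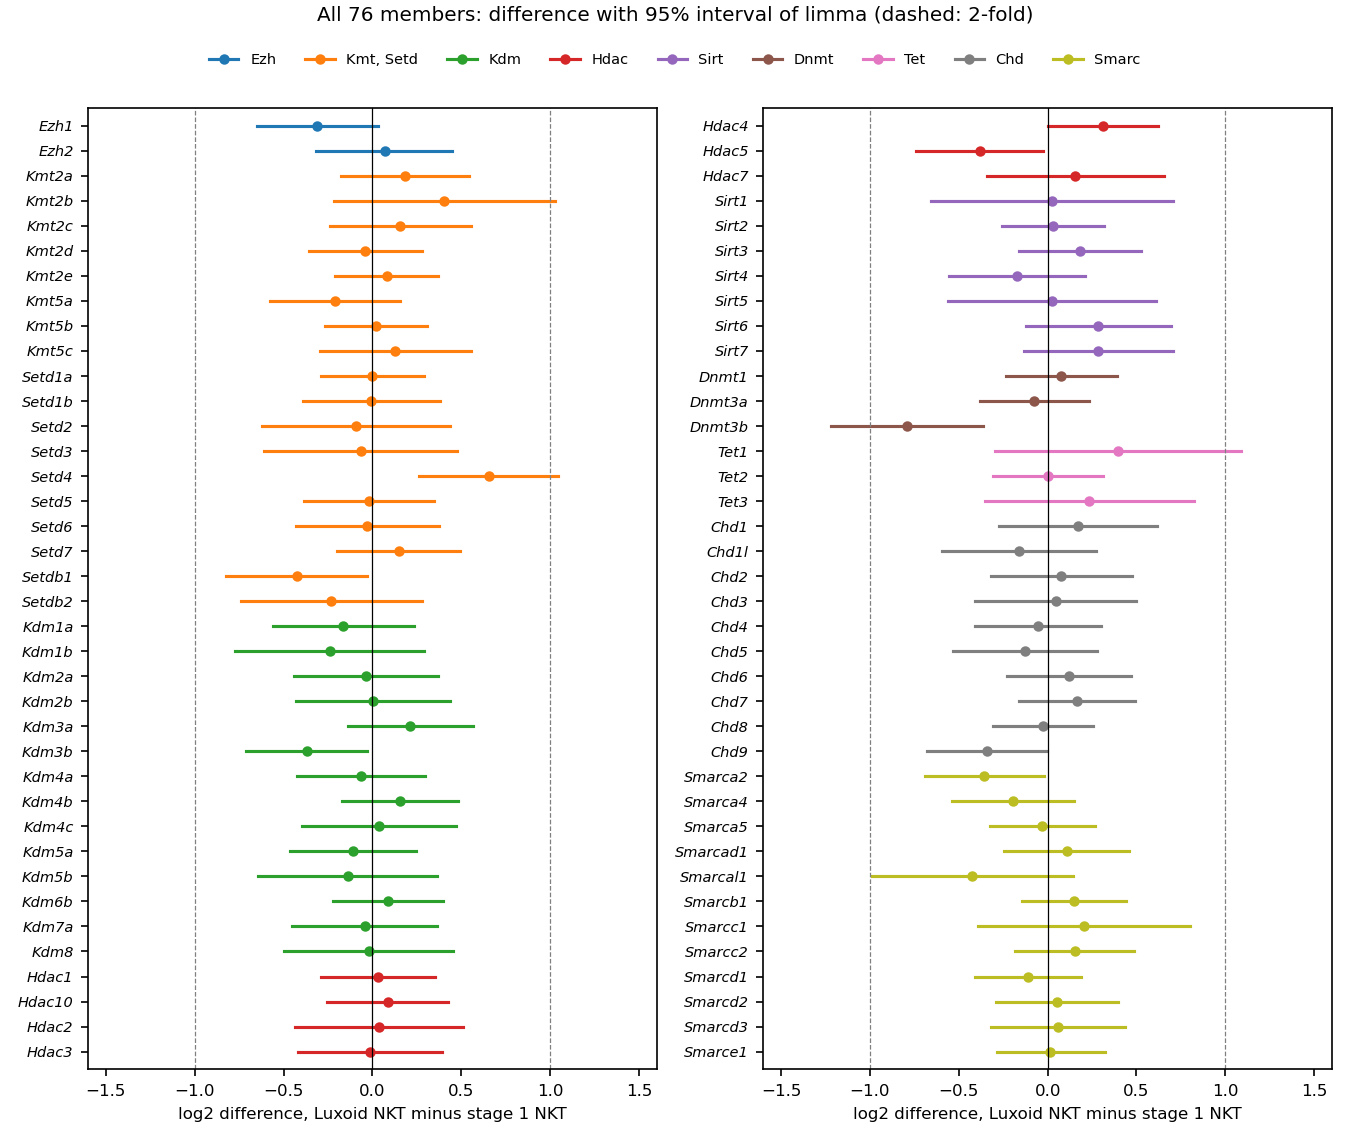
Log2 difference of Luxoid NKT minus stage 1 NKT (n = 3 and 2 arrays) for each of the 76 members, coloured by family, with the 95% interval of limma; dashed lines mark 2-fold in either direction. Points lie between -0.79 (Dnmt3b) and 0.65 (Setd4), and 72 of 76 intervals stay inside the dashed lines.

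Dnmt3b and Setd4 lay furthest from 0. Dnmt3b, a de novo DNA methyltransferase, read 177, 118 and 158 in Luxoid NKT, 276 and 241 in stage 1 NKT, and 183 and 180 in CD4SP. All 3 Luxoid arrays were below both stage 1 NKT arrays, and the difference was -0.79 ± 0.19 (SE; interval -1.22 to -0.36, limma adjusted p = 0.101). Its other probe set gave -0.56. Setd4, a SET domain methyltransferase, read 252, 268 and 235 in Luxoid NKT, 191 and 134 in stage 1 NKT, and 194 and 201 in CD4SP. The groups did not overlap, with a difference of 0.65 ± 0.17 (interval 0.26 to 1.05, limma adjusted p = 0.143), and its other probe sets gave 0.78 and 1.16. With the mean of a gene's probe sets in place of the brightest, Setd4 was the 1 member called in Luxoid against stage 1 NKT (0.87, limma adjusted p = 0.0144), and it was then also called lower in stage 1 NKT against CD4SP (-0.74, limma adjusted p = 0.0113).

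The other enzymes that set DNA methylation did not differ past the threshold between the NKT groups. Dnmt1, which copies methylation at replication, differed by 0.08 ± 0.14, and Dnmt3a, the other de novo enzyme, by -0.08 ± 0.13. Tet2 differed by 0.00105 ± 0.14 and Tet3 by 0.23 ± 0.26, while Tet1 (0.40 ± 0.30) had the widest interval of all members, -0.30 to 1.09. Tet1 read 674, 410 and 404 in Luxoid NKT and 503 and 266 in stage 1 NKT, so the groups overlapped and the arrays numbered 1 were the higher ones in both. The other Tet1 probe sets gave 0.06, 0.12 and -0.23.

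Histone deacetylases, which complexes of human PLZF hold, showed small differences in both directions. Hdac1, Hdac2 and Hdac3 of class I differed by 0.03 ± 0.14, 0.04 ± 0.21 and -0.01 ± 0.18. Among class IIa enzymes, Hdac4 read 675, 775 and 665 in Luxoid NKT and 568 and 564 in stage 1 NKT (0.31 ± 0.14, limma adjusted p = 0.428), and its other probe sets gave 0.23 and 0.19. Hdac5 pointed the other way with 395, 371 and 309 in Luxoid NKT and 471 and 459 in stage 1 NKT (-0.38 ± 0.16, limma adjusted p = 0.394). Neither pair of groups overlapped, and neither difference passed the threshold. Hdac7, which in the mouse thymus holds back the NKT-like effector programme, differed by 0.16 ± 0.22. Of 7 sirtuins, NAD-dependent deacetylases, 6 had a difference above 0 and 1 below, from -0.17 for Sirt4 to 0.29 for Sirt6, and none was called.

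No histone methyltransferase or demethylase passed the threshold by its brightest probe set. The Kmt and Setd enzymes ran from -0.43 (Setdb1) to 0.65 (Setd4, given above). Ezh2, a catalytic subunit of Polycomb repressive complex 2, differed by 0.07 ± 0.17 and its relative Ezh1 by -0.31 ± 0.15, where its second brightest probe set gave 0.20. Of 18 Kmt and Setd enzymes 8 lay above 0 and 10 below, with a median of -0.00448. Setdb1, which methylates lysine 9 of histone H3, read 626, 472 and 688 in Luxoid NKT and 795 and 786 in stage 1 NKT (-0.43 ± 0.18, limma adjusted p = 0.395). Of 14 demethylases 5 lay above 0 and 9 below, with the lowest at -0.37 ± 0.15 (Kdm3b, a lysine 9 demethylase). Kdm6b, which removes lysine 27 methylation, differed by 0.09 ± 0.14, and Kdm1a, the demethylase of the CoREST complex, by -0.16 ± 0.17.

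Nucleosome remodellers did not differ past the threshold either. Smarca2, 1 of the 2 alternative ATPases of the SWI/SNF (BAF) complex, read 1158, 1021 and 1047 in Luxoid NKT and 1366 and 1382 in stage 1 NKT, without overlap (-0.36 ± 0.15, limma adjusted p = 0.404). Smarca4, the other ATPase, differed by -0.20 ± 0.15. Chd9 read 948, 820 and 948 in Luxoid NKT and 1262 and 1036 in stage 1 NKT (-0.34 ± 0.15, limma adjusted p = 0.43). Chd4, the motor of the NuRD deacetylase complex, differed by -0.06 ± 0.16, and the ISWI motor Smarca5 by -0.03 ± 0.13.

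Stage 1 NKT cells were then compared with conventional CD4SP thymocytes. The methyltransferase Ezh2 and the remodeller Chd9 were higher in stage 1 NKT, and the lysine 4 methyltransferases Kmt2a, Kmt2c and Setd7, the lysine 27 demethylase Kdm6b and the remodeller Chd6 were lower. The changes were 1.5-fold to 1.74-fold. By limma 7 of 76 members were called (9.21%), where 14.9% of all genes were. Called members were 2 higher (2.63%, against 10.8% of all genes) and 5 lower (6.58%, against 4.08%). At an unadjusted p under 0.05 there were 14 members (18.4%, against 29.1%), 4 higher (5.26%, against 20.0%) and 10 lower (13.2%, against 9.11%). The median difference of the members was -0.03 and that of all genes 0.06, and 36 members lay above 0 (47.4%, against 56.2%). Groups did not overlap for 21 members higher and 27 lower (27.6% and 35.5%), where 36.6% and 23.6% of all genes did not. Each of these 7 calls was lost when 1 or another of the stage 1 NKT or CD4SP arrays was left out, so the count rests on all 4 arrays of this comparison. In each such fit 1 group holds a lone array, whose spread is assumed to be that of the other groups.

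Luxoid NKT was set against CD4SP in the same way, with the same CD4SP arrays, so both comparisons share their control and are given side by side. Here 6 of 76 members were called (7.89%), where 16.8% of all genes were: Ezh2 higher, and Kmt2a, Kmt2c, Setd7, Kdm6b and Smarca2 lower. That is 1.32% higher and 6.58% lower among members, against 11.3% and 5.51% of all genes. At an unadjusted p under 0.05 there were 21 members (27.6%, against 29.7%), 9 higher (11.8%, against 18.2%) and 12 lower (15.8%, against 11.6%). The median difference of the members was -0.09 and that of all genes 0.02, and 32 members lay above 0 (42.1%, against 52.4%). Groups did not overlap for 13 members higher (17.1%, against 25.4% of all genes) and 22 lower (28.9%, against 20.6%). Of these 6 calls Ezh2 and Smarca2 remained without Luxoid array 1 and without Luxoid array 3, beside a call of Sirt7 and of Hdac7 in that order. Each of the 6 was lost without 1 or the other CD4SP array. No member differed from CD4SP by 2-fold in either comparison, as 7.66% of all genes did in Luxoid NKT and 7.53% in stage 1 NKT. In Luxoid NKT the interval lay within 2-fold for 67 members (88.2%, against 79.3% of all genes) and within 1.5-fold for 34 (44.7%, against 40.1%). In stage 1 NKT these were 64 (84.2%, against 75.1%) and 33 (43.4%, against 30.9%).

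**Figure D2:**
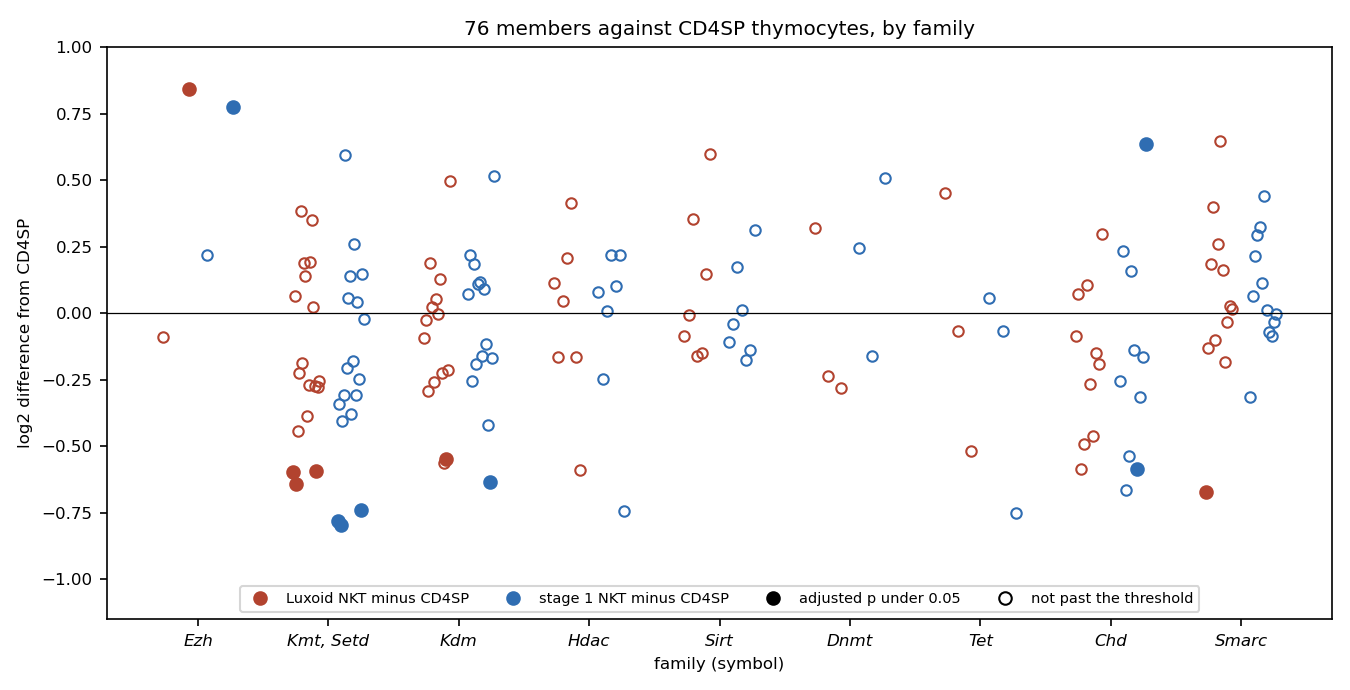
Log2 difference from CD4SP of each of the 76 members, by family, for Luxoid NKT (red, left in each family) and stage 1 NKT (blue, right), with filled points past limma's adjusted threshold of 0.05. Filled points are 6 for Luxoid NKT and 7 for stage 1 NKT, with Ezh2 at the top in both, and Smarca2 lowest for Luxoid NKT and Kmt2c for stage 1 NKT.

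Ezh2 and Kdm6b act on the same residue in opposite ways, and both differed between NKT cells and CD4SP. Ezh2 read 1342, 1224 and 1394 in Luxoid NKT, 1320 and 1198 in stage 1 NKT, and 863 and 626 in CD4SP. All 5 NKT arrays stood above both CD4SP arrays. Against CD4SP it was 1.79-fold higher in Luxoid NKT (0.84 ± 0.17, limma adjusted p = 0.0103) and 1.71-fold higher in stage 1 NKT (0.78 ± 0.18, limma adjusted p = 0.0244). The first call was lost without CD4SP array 2 (0.0914). The second was lost without stage 1 NKT array 1 (0.150) or array 2 (0.0845) or CD4SP array 2 (0.146). Ezh2 has 1 probe set with its name alone.

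Genes of the cell cycle were higher beside Ezh2. Of 24 tested, 20 were called higher and 0 lower in Luxoid NKT against CD4SP and 21 higher and 0 lower in stage 1 NKT against CD4SP, and none was called between the NKT groups. Their summed intensity was 41030 to 48836 in Luxoid NKT, 43560 to 44218 in stage 1 NKT and 24648 to 27741 in CD4SP. Their part in the difference of Ezh2 was not tested. Ezh1 read 536, 557 and 441 in Luxoid NKT, 605 and 657 in stage 1 NKT, and 531 and 553 in CD4SP, and was not called in either comparison with CD4SP (-0.09 ± 0.15 for Luxoid NKT and 0.22 ± 0.16 for stage 1 NKT). Its second brightest probe set gave 0.43 and 0.23.

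Kdm6b read 1460, 1551 and 1388 in Luxoid NKT, 1484 and 1283 in stage 1 NKT, and 2112 and 2170 in CD4SP. Every NKT array was below both CD4SP arrays. Kdm6b was 1.46-fold lower in Luxoid NKT than in CD4SP (-0.55 ± 0.14, limma adjusted p = 0.0268) and 1.55-fold lower in stage 1 NKT (-0.63 ± 0.15, limma adjusted p = 0.0232). The brightest probe set is of a type that may also bind other transcripts. Of its 2 dimmer probe sets 1 pointed the same way (-0.46 and -0.35) and 1 the other way (0.41 and 0.26), and with their mean neither call was kept (limma adjusted p = 0.478 and 0.422). The Luxoid call was also lost without Luxoid array 1 (0.0588) or 3 (0.0714) or CD4SP array 1 (0.107) or 2 (0.144), and the stage 1 NKT call without any of that comparison's 4 arrays (0.0638 to 0.136).

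Kmt2a, Kmt2c and Setd7, writers of histone H3 lysine 4 methylation, were lower in NKT cells. Kmt2a, the MLL1 enzyme, read 755, 733 and 638 in Luxoid NKT, 701 and 552 in stage 1 NKT, and 1015 and 1125 in CD4SP. It was 1.51-fold lower in Luxoid NKT (-0.60 ± 0.16, limma adjusted p = 0.0342) and 1.72-fold lower in stage 1 NKT (-0.78 ± 0.17, limma adjusted p = 0.0188) than in CD4SP. No NKT array reached a CD4SP array, and the second probe set gave -0.58 and -0.67. Kmt2c, an enzyme of enhancers, read 2280, 2217 and 2297 in Luxoid NKT, 2076 and 1986 in stage 1 NKT, and 4279 and 2912 in CD4SP. It was 1.56-fold lower in Luxoid NKT (-0.64 ± 0.17, limma adjusted p = 0.0379) and 1.74-fold lower in stage 1 NKT (-0.80 ± 0.19, limma adjusted p = 0.0251). Both CD4SP arrays exceeded all NKT arrays but differed between themselves more than the NKT arrays did. The other 3 probe sets of Kmt2c also differed below 0, by -0.79, -0.64 and -0.26 in Luxoid NKT and -0.67, -0.72 and -0.48 in stage 1 NKT.

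Setd7, which methylates lysine 4 and proteins other than histones, read 778, 828 and 714 in Luxoid NKT, 629 and 772 in stage 1 NKT, and 1249 and 1086 in CD4SP. It was 1.51-fold lower in Luxoid NKT (-0.59 ± 0.15, limma adjusted p = 0.0311) and 1.67-fold lower in stage 1 NKT (-0.74 ± 0.17, limma adjusted p = 0.0201), again without overlap. Its dimmer probe set differed less (-0.23 and -0.06), and the mean of both was not called (limma adjusted p = 0.0707 and 0.107). Left-out arrays changed the calls of these enzymes. In Luxoid NKT, all 3 calls were lost without Luxoid array 1 (0.0507, 0.0745 and 0.0628 for Kmt2a, Kmt2c and Setd7), without Luxoid array 3 (0.0930, 0.0815 and 0.0838) and without CD4SP array 1 (0.101, 0.232 and 0.184). Those of Kmt2a and Setd7 were lost with the replicate block (0.0574 and 0.0534) and without CD4SP array 2 (0.204 and 0.0860), and that of Kmt2c without Luxoid array 2 or either stage 1 NKT array (0.0671 each). In stage 1 NKT, Kmt2a was lost without stage 1 NKT array 2 (0.122) or CD4SP array 1 (0.0646) or 2 (0.117). Kmt2c was lost without stage 1 NKT array 1 (0.116) or 2 (0.123) or CD4SP array 1 (0.125), and Setd7 without stage 1 NKT array 1 (0.147) or CD4SP array 1 (0.119) or 2 (0.0618).

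The remaining MLL family enzymes did not pass the threshold in the main fit, of group means alone. Kmt2d, the partner of Kmt2c at enhancers, read 2022, 2468 and 2265 in Luxoid NKT, 2385 and 2232 in stage 1 NKT, and 3089 and 3019 in CD4SP (-0.44 ± 0.14, limma adjusted p = 0.0631, and -0.40 ± 0.15, limma adjusted p = 0.119). Neither NKT group overlapped with CD4SP. Kmt2e, which binds lysine 4 methylation, differed by -0.23 ± 0.13 and -0.31 ± 0.14 in the same order. With the mean of probe sets Kmt2d (limma adjusted p = 0.0486) and Kmt2e (0.0428) were called lower in Luxoid NKT. Kmt2b differed by 0.06 ± 0.27 in Luxoid NKT and -0.34 ± 0.30 in stage 1 NKT. Of the 18 Kmt and Setd enzymes, 7 lay above 0 and 11 below in Luxoid NKT against CD4SP (median -0.24), and 6 above and 12 below in stage 1 NKT against CD4SP (median -0.23). Kmt5a, which adds the first methyl group to lysine 20 of histone H4, pointed the other way with 1792, 1385 and 1801 in Luxoid NKT, 2013 and 1803 in stage 1 NKT, and 1286 and 1239 in CD4SP (0.38 ± 0.16, limma adjusted p = 0.147, and 0.59 ± 0.18, limma adjusted p = 0.0547). Kmt5a was called higher in stage 1 NKT with the replicate block (limma adjusted p = 0.0233) and with a Y-linked covariate (0.0393).

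**Figure D3:**
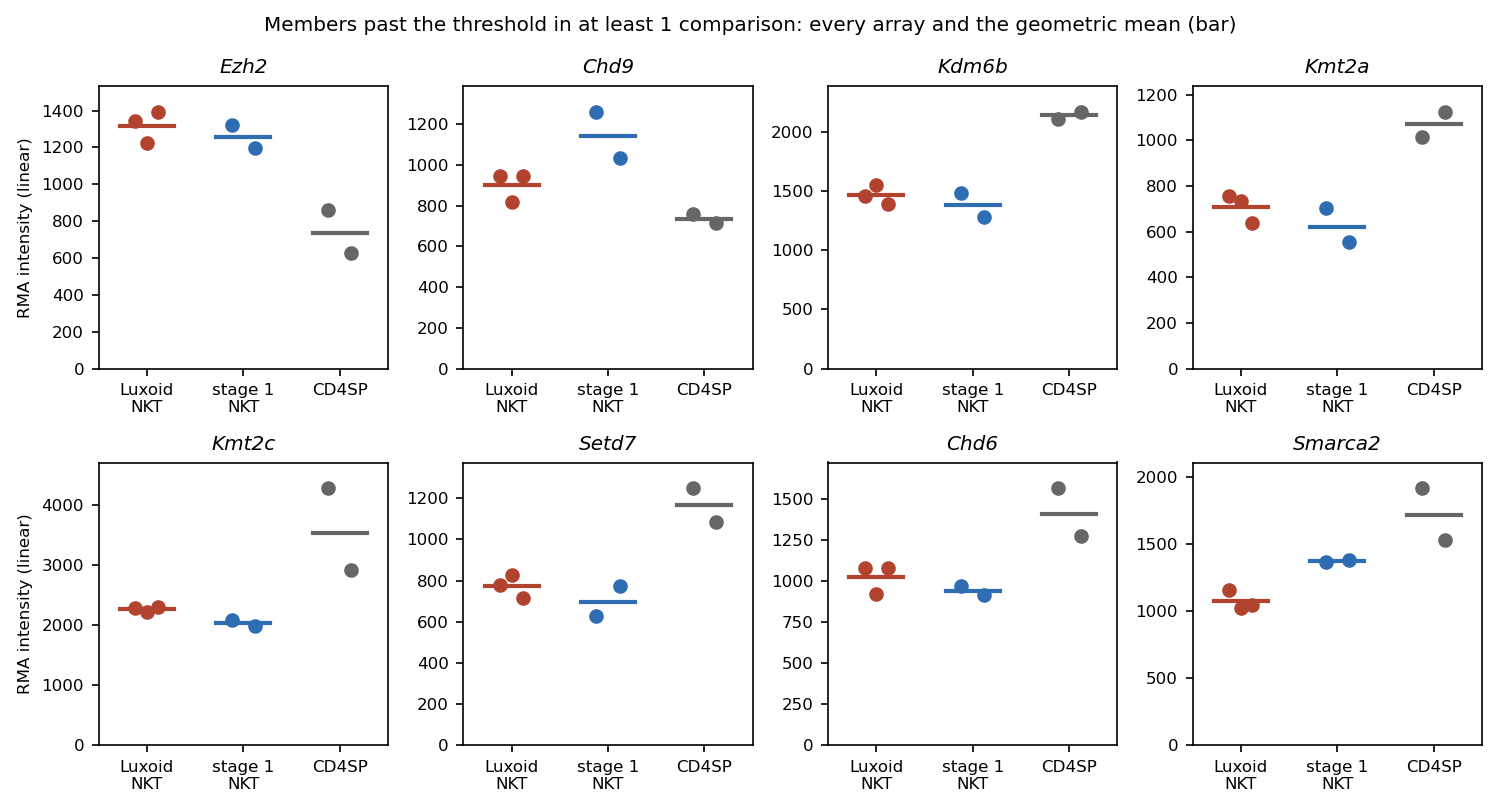
RMA intensity on a linear axis from 0 for the 8 members past the threshold in at least 1 comparison; points are arrays (3 Luxoid NKT, 2 stage 1 NKT, 2 CD4SP) and bars the geometric mean of the group. All NKT arrays lie above CD4SP for Ezh2 and Chd9 and below it for Kdm6b, Kmt2a, Kmt2c, Setd7, Chd6 and Smarca2.

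The remodellers Smarca2, Chd6 and Chd9 each passed in 1 comparison. Smarca2 read 1158, 1021 and 1047 in Luxoid NKT, against 1914 and 1531 in CD4SP, and was 1.59-fold lower (-0.67 ± 0.15, limma adjusted p = 0.0157, and 0.122 without CD4SP array 1). The second probe set gave -0.32. In stage 1 NKT it differed from CD4SP by -0.32 ± 0.16 (limma adjusted p = 0.234), and the difference between the NKT groups did not pass, as given above. Chd6, a chromodomain helicase, read 1080, 917 and 1080 in Luxoid NKT, 967 and 912 in stage 1 NKT, and 1564 and 1270 in CD4SP. It was 1.5-fold lower in stage 1 NKT (-0.59 ± 0.17, limma adjusted p = 0.0493), and this call was lost without any array other than Luxoid array 2 (0.0637 to 0.233). Its dimmer probe set gave -0.07, and the mean of both was not called (limma adjusted p = 0.12). The Chd6 call was also lost with no intensity filter (0.0614), over all probe sets (0.0664), with median centring (0.0519) and with only the 2 groups compared (0.0566). In Luxoid NKT the difference was -0.46 ± 0.15 (limma adjusted p = 0.0748). Chd9 read 1262 and 1036 in stage 1 NKT, against 759 and 713 in CD4SP, and was 1.55-fold higher (0.64 ± 0.16, limma adjusted p = 0.0331). A dimmer Chd9 probe set pointed down (-0.36), the mean of its probe sets was not called (0.20, limma adjusted p = 0.635), and the call was lost without any of the 4 arrays compared (0.0593 to 0.207).

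The other remodellers were not called in the main fit. Of 10 Chd genes 3 lay above 0 and 7 below in each comparison with CD4SP, with medians of -0.17 in Luxoid NKT and -0.21 in stage 1 NKT. Chd2 read 1948, 2208 and 2241 in Luxoid NKT, 2148 and 1894 in stage 1 NKT, and 3782 and 2703 in CD4SP. It was just short of the threshold in both comparisons (-0.59 ± 0.17, limma adjusted p = 0.0521, and -0.66 ± 0.19, limma adjusted p = 0.0505). Its second probe set gave -0.257 and -0.305. Chd2 was called lower in stage 1 NKT with the mean of probe sets (limma adjusted p = 0.0452), the replicate block (0.0403) and a Y-linked covariate (0.0411). In Luxoid NKT it was called lower with that covariate (0.0481) and not with the mean or the block. Chd4 differed by 0.10 ± 0.16 and 0.16 ± 0.17. Of 12 Smarc genes 7 lay above 0 and 5 below in each comparison, and the core subunits Smarcb1, Smarcc2 and Smarce1 differed from CD4SP by at most 0.26. Smarcc1, another core subunit, read 2067, 1515 and 2100 in Luxoid NKT, 1944 and 1360 in stage 1 NKT, and 1548 and 927 in CD4SP, and both NKT groups overlapped with CD4SP. The differences were 0.65 ± 0.26 and 0.44 ± 0.29, the other 2 probe sets at that intensity gave 0.45 and 0.56 in Luxoid NKT and 0.58 and 0.65 in stage 1 NKT without overlap, and Smarcc1 was called in Luxoid NKT with the replicate number as a block (limma adjusted p = 0.0295) and with a Y-linked covariate (0.0302).

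Histone deacetylases, sirtuins and enzymes of DNA methylation had no call against CD4SP in the main fit. Hdac7 read 896, 908 and 1341 in Luxoid NKT, 842 and 1015 in stage 1 NKT, and 1346 and 1780 in CD4SP. Every NKT array was below both CD4SP arrays, Luxoid array 3 by little (-0.59 ± 0.22, limma adjusted p = 0.11, and -0.74 ± 0.24, limma adjusted p = 0.0735), and its second probe set gave -0.55 and -0.59. With the mean of both probe sets Hdac7 was called lower in Luxoid NKT (limma adjusted p = 0.0295) and in stage 1 NKT (limma adjusted p = 0.0232), as it was with the replicate block (0.0124 and 0.0135). Hdac1 (0.11 ± 0.14 and 0.08 ± 0.15), Hdac2 (0.05 ± 0.21 and 0.00785 ± 0.23) and Hdac3 (0.21 ± 0.18 and 0.22 ± 0.20) were close to CD4SP. Sirt7, a nuclear sirtuin, read 729, 1068 and 882 in Luxoid NKT, 698 and 751 in stage 1 NKT, and 533 and 638 in CD4SP (0.60 ± 0.18, limma adjusted p = 0.0586, and 0.31 ± 0.20, limma adjusted p = 0.345). Sirt7 was called in Luxoid NKT with the block (limma adjusted p = 0.0346), with a Y-linked covariate (0.0255) and in the fit to means of probe sets (0.0417).

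Dnmt1 read 4287, 4800 and 4816 in Luxoid NKT, 4130 and 4660 in stage 1 NKT, and 3570 and 3842 in CD4SP. Its NKT arrays were all above CD4SP (0.32 ± 0.14, limma adjusted p = 0.155, and 0.24 ± 0.15, limma adjusted p = 0.322). The other 2 probe sets differed more (0.63 and 0.54 in Luxoid NKT, 0.61 and 0.42 in stage 1 NKT), and with the mean of all 3 Dnmt1 was called higher in Luxoid NKT (0.50, limma adjusted p = 0.0145) and in stage 1 NKT (0.42, limma adjusted p = 0.0443). Dnmt3a differed by -0.24 ± 0.13 and -0.16 ± 0.15. Tet2 differed by -0.07 ± 0.14 and -0.07 ± 0.15, and Tet3 by -0.52 ± 0.26 (limma adjusted p = 0.223) and -0.75 ± 0.28 (limma adjusted p = 0.118). Tet3 was called in stage 1 NKT under the block (limma adjusted p = 0.0253) and with only the 2 groups compared (0.0467).

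Demethylases other than Kdm6b were not called, though with the replicate block Kdm5b was called lower (limma adjusted p = 0.0249) and Kdm8 higher (0.0361) in Luxoid NKT. Kdm5b, which removes lysine 4 methylation, read 1382, 898 and 1311 in Luxoid NKT, 1397 and 1202 in stage 1 NKT, and 2023 and 1491 in CD4SP (-0.56 ± 0.22, limma adjusted p = 0.13, and -0.42 ± 0.24, limma adjusted p = 0.292). Kdm1a differed by -0.09 ± 0.17 and 0.07 ± 0.19 and Kdm5a by -0.23 ± 0.16 and -0.12 ± 0.17. Of the 14 demethylases tested, 5 lay above 0 and 9 below in Luxoid NKT against CD4SP and 7 on each side in stage 1 NKT against CD4SP.

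The size of the differences was set against that of all genes. The median size was 0.117 for members and 0.151 for all genes in Luxoid against stage 1 NKT, 0.211 and 0.267 in stage 1 NKT against CD4SP, and 0.210 and 0.244 in Luxoid NKT against CD4SP. These are descriptions of the list and were not tested.

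**Figure D4:**
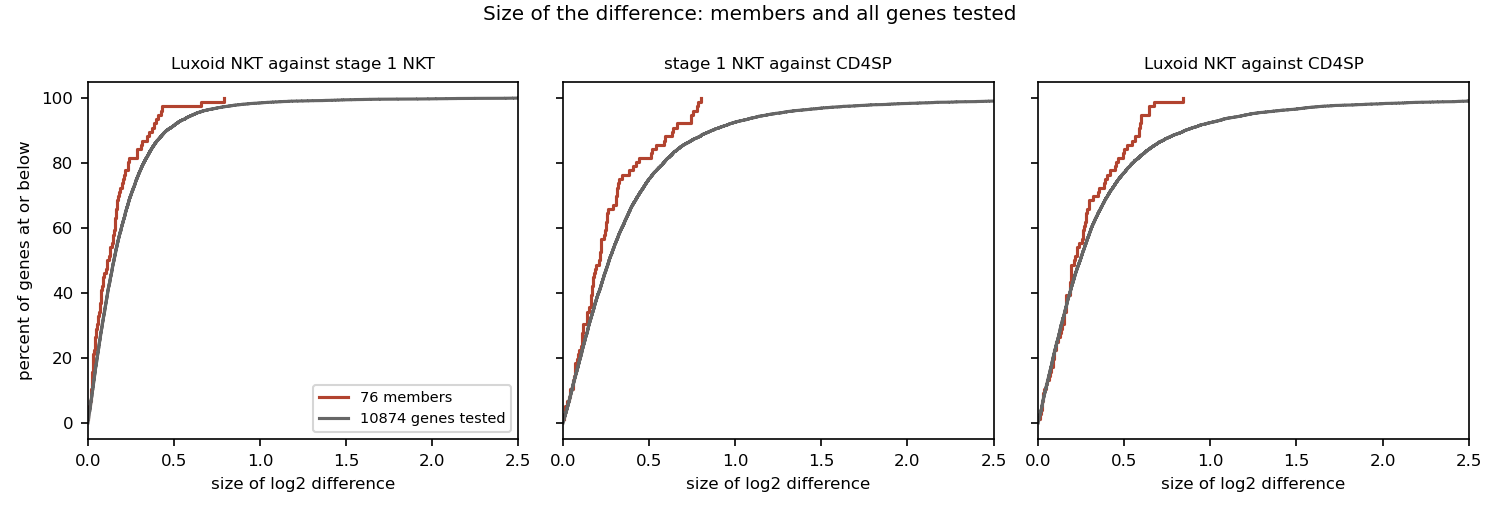
Cumulative percent of genes (vertical axis) at or below a given size of log2 difference (horizontal axis, shown to 2.5) for the 76 members in red and all 10874 genes tested in grey, with 1 panel per comparison. The red line ends before 1 in every panel, and at its median lies at 0.117, 0.211 and 0.210.

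Promoters are shown for the 2 called members of largest difference in each direction and comparison with CD4SP, because these genes lead the calls: Ezh2 as the one that was higher, and Kmt2c, Kmt2a and Smarca2 as ones that were lower. Each sequence, from RefSeq, is the 250 bases before the transcript start on the gene's strand (GRCm38.p6), 5′ to 3′. Capitals mark matches, on either strand, to the GC box (GGGCGG), the ETS motif (CCGGAAG), either of the E-boxes (CACGTG and CAGCTG) or the NRF1 motif, and neighbouring matches can share letters. Chd9 has 2 listed starts and is not shown.
Ezh2: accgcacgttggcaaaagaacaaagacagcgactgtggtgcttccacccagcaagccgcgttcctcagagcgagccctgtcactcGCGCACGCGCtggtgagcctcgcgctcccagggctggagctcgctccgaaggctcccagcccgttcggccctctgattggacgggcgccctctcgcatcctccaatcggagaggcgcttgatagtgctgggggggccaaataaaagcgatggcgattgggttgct
Kmt2c: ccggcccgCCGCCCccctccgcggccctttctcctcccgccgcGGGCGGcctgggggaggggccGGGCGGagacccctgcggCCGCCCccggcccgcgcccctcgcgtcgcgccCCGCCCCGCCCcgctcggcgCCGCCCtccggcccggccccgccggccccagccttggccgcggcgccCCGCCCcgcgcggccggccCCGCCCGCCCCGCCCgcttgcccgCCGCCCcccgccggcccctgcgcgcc
Kmt2a: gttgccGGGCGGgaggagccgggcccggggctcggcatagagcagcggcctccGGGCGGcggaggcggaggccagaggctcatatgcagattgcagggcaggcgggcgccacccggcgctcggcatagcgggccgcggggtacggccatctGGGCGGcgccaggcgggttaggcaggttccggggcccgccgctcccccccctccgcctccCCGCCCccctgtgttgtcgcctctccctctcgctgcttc
Smarca2: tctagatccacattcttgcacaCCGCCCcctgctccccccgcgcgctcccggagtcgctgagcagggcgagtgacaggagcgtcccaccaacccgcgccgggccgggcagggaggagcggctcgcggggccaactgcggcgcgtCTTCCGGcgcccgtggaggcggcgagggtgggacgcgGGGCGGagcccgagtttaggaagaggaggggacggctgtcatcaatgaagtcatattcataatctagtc

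The Ezh2 promoter (chr6:47595031-47595280, minus strand) held 1 match to the NRF1 motif, 0 to GGGCGG and 23 CG dinucleotides. That of Kmt2c (chr5:25498784-25499033, minus strand) held 12 matches to GGGCGG and 48 CG dinucleotides. Kmt2a (chr9:44881290-44881539, minus strand) had 4 matches to GGGCGG, and Smarca2 (chr19:26604910-26605159, plus strand) had 2 and 1 to CCGGAAG. Of 32851 promoters of that length in the table, GGGCGG was in 32.7%, CCGGAAG in 6.91%, CACGTG in 6.02%, CAGCTG in 13.0% and the NRF1 motif in 3.74%. Of 83 promoters of the 60 members that the table holds, these shares were 67.5%, 12%, 3.61%, 8.43% and 8.43%. Members had a median of 21 CG dinucleotides and all promoters 6. The member promoters are of genes that passed the intensity filter, while all promoters were not filtered by expression. The shares are thus of unlike sets. A match says that these letters are present and nothing of a factor.

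Chromatin genes outside the rule were read in 8 lists of 135 tested genes: acetyltransferases, other methyltransferases, Polycomb subunits, COMPASS subunits, corepressor subunits, BAF subunits, other remodellers, and readers and partners of DNA methylation. In Luxoid against stage 1 NKT 0 were called higher and 2 lower, where 0.901% and 0.653% of all genes were. Smyd2, a lysine methyltransferase, read 172, 147 and 147 in Luxoid NKT and 392 and 309 in stage 1 NKT (-1.17 ± 0.20, limma adjusted p = 0.0264). Rcor3, a subunit of CoREST type complexes, read 95.2, 75.6 and 71.2 in Luxoid NKT and 160 and 147 in stage 1 NKT (-0.94 ± 0.16, limma adjusted p = 0.0284). Both genes were lower in all 3 Luxoid arrays than in either stage 1 NKT array. The Rcor3 values of 75.6 and 71.2 in Luxoid NKT lay under the minimum of the intensity filter. Whether the call of Smyd2 or of Rcor3 holds for other probe sets or with an array left out was not tested. Of known partners of PLZF, Sin3a differed by -0.06 ± 0.22 and Bmi1 by 0.20 ± 0.16 between the NKT groups.

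Against CD4SP, 20 of the 135 genes were called higher and 7 lower in Luxoid NKT, and 11 higher and 7 lower in stage 1 NKT. Of all genes 11.3% and 5.51% were called higher and lower in Luxoid NKT, and 10.8% and 4.08% in stage 1 NKT, and the counts of the lists are given beside these shares with no test of a list. Sap30, a subunit of the Sin3 deacetylase complex, read 1016, 1379 and 1471 in Luxoid NKT, 827 and 714 in stage 1 NKT, and 172 and 169 in CD4SP. It was the corepressor gene with the largest difference (2.90 ± 0.18 in Luxoid NKT, limma adjusted p = 2.27e-05, and 2.17 ± 0.20 in stage 1 NKT, limma adjusted p = 0.000234). In the 19 corepressor genes, 5 were called higher and 1 lower in Luxoid NKT, and 1 higher and 1 lower in stage 1 NKT, and whether these counts differ was not tested.

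Of 11 readers and partners of DNA methylation, 4 were called higher and 1 lower in Luxoid NKT, and 3 higher and 1 lower in stage 1 NKT. Cxxc5 and Apobec3 were called higher in both, and the largest differences of the list were 2.83 and 2.62. Uhrf1, which brings Dnmt1 to newly copied DNA, read 1307, 1052 and 1230 in Luxoid NKT, 1118 and 1018 in stage 1 NKT, and 449 and 315 in CD4SP (1.66 ± 0.18, limma adjusted p = 0.000516, and 1.51 ± 0.20, limma adjusted p = 0.00182). Hells, a remodeller needed for DNA methylation, was higher too (1.15 ± 0.22, limma adjusted p = 0.00814, and 1.36 ± 0.24, limma adjusted p = 0.00667). Zbtb4, a methyl-CpG binding zinc finger protein, was lower (-1.51 ± 0.16, limma adjusted p = 0.000451, and -1.33 ± 0.18, limma adjusted p = 0.00186). The cell cycle genes were higher beside Uhrf1 and Hells as beside Ezh2, and their part was not tested.

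Among other methyltransferases, Prmt7, which methylates arginine, read 530, 535 and 537 in Luxoid NKT, 932 and 698 in stage 1 NKT, and 298 and 314 in CD4SP (0.80 ± 0.15, limma adjusted p = 0.00837, and 1.40 ± 0.17, limma adjusted p = 0.00107). Nsd3, a lysine 36 methyltransferase, was lower in stage 1 NKT (-1.002 ± 0.23, limma adjusted p = 0.0226), and its difference in Luxoid NKT was -0.70 ± 0.21 (limma adjusted p = 0.0573). Of 27 Polycomb subunits 2 were called higher and 1 lower in Luxoid NKT, and 1 higher and 2 lower in stage 1 NKT. Of 19 acetyltransferase genes 0 were called higher, and 2 were lower in Luxoid NKT and 1 in stage 1 NKT, with the coactivator Ncoa1 lower in both (-0.77 ± 0.14, limma adjusted p = 0.00712, and -0.75 ± 0.16, limma adjusted p = 0.0141). COMPASS subunits, partners of the Kmt2 enzymes, had 1 call each of 11, Paxip1 higher in Luxoid NKT and Dpy30 higher in stage 1 NKT.

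**Figure D5:**
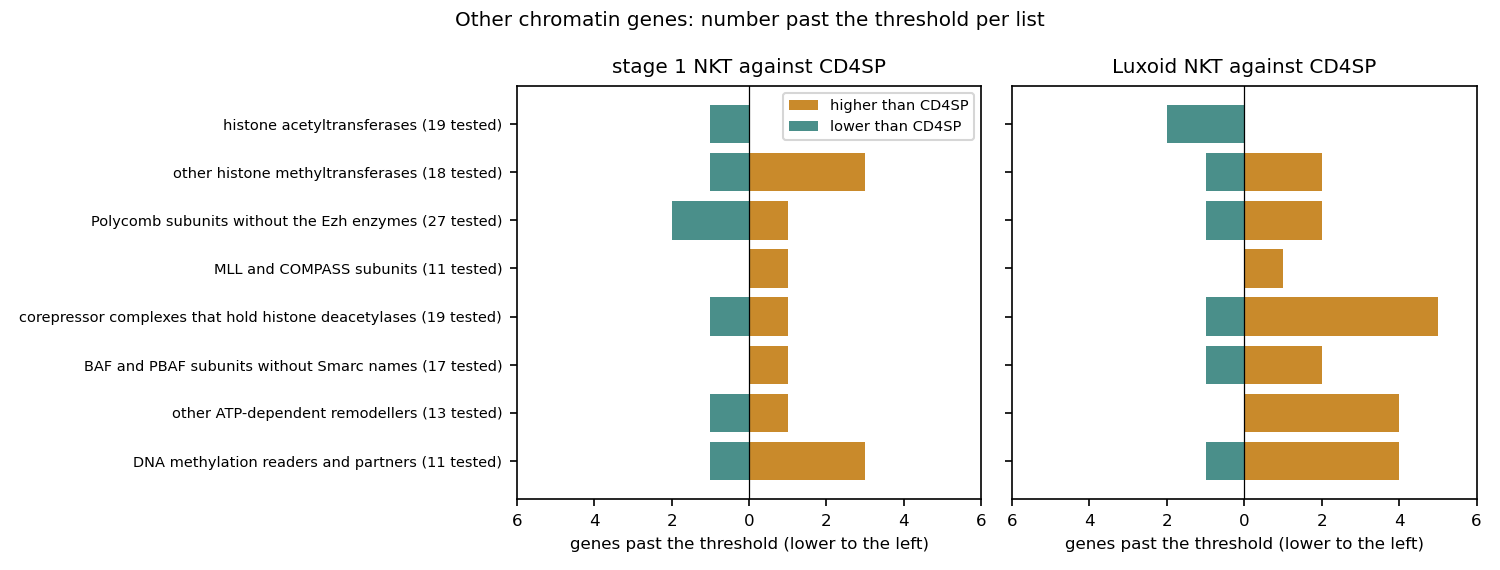
Number of genes past limma's adjusted threshold of 0.05 in 8 lists of chromatin genes outside the members, higher than CD4SP to the right and lower to the left, for stage 1 NKT (left panel) and Luxoid NKT (right panel). Bars reach at most 5 genes, and over all 8 lists 20 higher and 7 lower genes were called in Luxoid NKT and 11 and 7 in stage 1 NKT, where 11.3% and 5.51%, and 10.8% and 4.08%, of all genes were.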

How the data were processed

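RNA of 7 samples was measured on single-colour Affymetrix arrays, 1 array each. Per the file's values, what the authors deposited is linear intensity (3.08 to 20875, array medians 79.6 to 83.7), made with RMA and Affymetrix Expression Console per the submitters' processing notes, while versions and settings were not given in the sources used here. This method equalises the arrays' distributions and compresses differences between dim probe sets. The design provided for log2 to be taken of linear values, with no pseudocount. Genes were named from GEO's platform annotation: of 45037 probe sets 34945 carried a single symbol, 932 carried several, 9160 had no entry, and 34741 matched the RefSeq table of GRCm38.p6. Per gene the probe set of highest mean log2 value was kept. Probe sets of 1 gene measure different parts of its transcripts and can disagree. Of 96 dimmer probe sets of 47 members that reached 82 in 2 arrays, 56 had the direction of the brightest in Luxoid against stage 1 NKT, 72 in Luxoid NKT against CD4SP and 79 in stage 1 NKT against CD4SP. The text gives them for called members and for some others.

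limma 3.58.1 (lmFit and eBayes, under R 4.3.3) fitted a mean for each group, using every array, with 4 residual and 4.49 prior degrees of freedom. The 3 contrasts were adjusted separately by Benjamini-Hochberg over 10874 genes, and the number of arrays limits the precision. Differences are log2 with SE. The fit was also run on simulated data with shifts in the Luxoid group larger than any difference of a member, which says nothing of smaller ones. Samples were grouped by their titles; labels call them biological replicates of pooled mice. In all 18 alternatives were run, 7 of which leave out 1 array. The members, lists and rules were chosen with earlier results of these data known. Named genes are members, called genes of the lists with the largest differences, and partners of PLZF.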

Additional observations from a re-analysis of the deposited data

How the results depend on the processing

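The 3 counts of called members were recomputed under 18 alternatives. For Luxoid against stage 1 NKT, 0 members were called in 17 of them, 0 to 0 over the 7 that leave out 1 array, and 1 (Setd4) with the mean of probe sets. For stage 1 NKT against CD4SP the count of 7 became 11 with the replicate number as a block and ranged from 1 to 10 with 1 array left out. For Luxoid NKT against CD4SP the count of 6 became 10 with the mean of probe sets, 10 with the replicate block and 11 with a covariate for Y-linked expression, and ranged from 1 to 7 with 1 array left out. No called member changed direction. Counted once per member, comparison and alternative, calls were lost 59 times and gained 58 times over the 18 alternatives, all in the direction of the main value. Replicate numbers are shared by 2 arrays of each group, which no label says are paired. Deviations from group means of same-numbered arrays correlated at 0.334 to 0.491, and the numbers go with the level of Y-linked genes, so the block and the Y-linked covariate cannot be told apart from other differences between arrays numbered 1 and 2. With the block all 7 members of the stage 1 NKT comparison stayed called, and 4 of 6 of the Luxoid NKT comparison, without Kmt2a (limma adjusted p = 0.0574) and Setd7 (0.0534). The causes of these moves were not tested. Over all genes tested, 1 array left out gave 55 to 178 calls in place of 169 for Luxoid against stage 1 NKT, 866 to 1726 in place of 1831 for Luxoid NKT against CD4SP and 643 to 1846 in place of 1621 for stage 1 NKT against CD4SP, where the block gave 2616. The number of arrays limits what could be called. The 95% intervals of members, which are not adjusted for the number of genes, reached a median of 0.37 to 0.41 (log2) to either side.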
